A study of Mus musculus with 2 samples.

Results

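The proteins encoded by Gap43, Basp1, Marcks, Marcksl1, Gpm6a, Gpm6b and Dbn1 sit at or just beneath the plasma membrane of the neuronal growth cone, the motile tip of an extending axon or dendrite. The messages of these 7 genes were taken from the gene and transcript tables of both libraries by Ensembl gene identifier, out of 43346 genes listed, and each identifier matched 1 row in each library. The mice were newborns of strain B6NCrl, taken at postnatal day 0, and the tissue was forebrain. The 2 libraries, from pup 1 (replicate 1) and pup 3 (replicate 2), belong to 1 group without any treatment or genetic change named in the labels, and sex was not collected. Each was made by a Smart-seq protocol from 13 pg of total RNA longer than 200 nt, the amount set equal to 1 cell-equivalent, with spike-in RNA added. The RNA was extracted from the whole forebrain of a single pup, so a library is a small sample of a mixture of cell types and not a cell, and a smaller number of cells of a type cannot be told apart from less RNA per cell.

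Gap43, Basp1, Marcks and Marcksl1 encode acidic, largely unstructured proteins that are fixed to the inner face of the membrane by fatty acids. Basic stretches of these proteins bind acidic lipids such as phosphatidylinositol bisphosphate, and for Gap43, Marcks and Marcksl1, calcium-calmodulin binding and phosphorylation by protein kinase C are well known. Gpm6a and Gpm6b encode tetraspan glycoproteins related to the myelin proteolipid protein, and Gpm6a promotes neurite and filopodium outgrowth in cultured neurons. Dbn1 encodes drebrin, an actin filament binding protein that links actin to microtubules in the growth cone and later takes part in dendritic spines. Drebrin exists in an embryonic form and an adult form, which differ by an exon included in the adult message.

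In 2 of the members, Dbn1 and Gpm6b, the libraries differed in which annotated form of the message was read, and the sequences that tell these forms apart are given here. All are mRNA-sense sequence from GENCODE M21 transcripts, on build mm10. The adult form of Dbn1 contains an exon of 138 bases at chr13:55476636-55476773 on the minus strand, shown in capitals between the ends of its neighbours, and the line after it shows the junction that skips the exon.
Dbn1 with the exon: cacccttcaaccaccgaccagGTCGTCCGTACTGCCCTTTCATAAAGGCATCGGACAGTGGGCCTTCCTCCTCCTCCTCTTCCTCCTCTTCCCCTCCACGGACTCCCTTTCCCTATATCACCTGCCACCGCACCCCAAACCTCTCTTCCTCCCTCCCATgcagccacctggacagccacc
Dbn1 without the exon: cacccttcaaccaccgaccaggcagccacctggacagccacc
A later Dbn1 exon can begin at either of a pair of acceptor sites 3 bases apart. The added bases, at chr13:55474559-55474561 on the minus strand, are in capitals.
Dbn1 longer acceptor: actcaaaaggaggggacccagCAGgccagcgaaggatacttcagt
Dbn1 shorter acceptor: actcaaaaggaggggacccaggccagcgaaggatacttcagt

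Gpm6b lies on the plus strand of the X chromosome and has an upstream and a downstream first exon, shown here from Gpm6b-201 and Gpm6b-206, that splice to the same next exon. Capitals mark the coding bases of the first exon, which are 4 for the upstream start at chrX:166239133-166239136 and 61 for the downstream start at chrX:166345021-166345081.
Gpm6b upstream start: ATGGgttgcttcgaatgctgcatca
Gpm6b downstream start: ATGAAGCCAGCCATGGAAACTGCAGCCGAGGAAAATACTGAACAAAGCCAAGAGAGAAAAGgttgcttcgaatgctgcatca
Messages from the downstream start can hold a further exon of 120 bases at chrX:166353565-166353684, in capitals in the next line.
Gpm6b with the alternative exon: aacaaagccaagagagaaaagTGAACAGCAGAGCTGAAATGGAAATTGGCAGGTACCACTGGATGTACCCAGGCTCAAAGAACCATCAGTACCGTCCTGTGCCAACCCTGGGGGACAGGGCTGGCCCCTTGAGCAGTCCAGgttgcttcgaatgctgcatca
The coding region ends in either a far exon, at chrX:166386952-166387098, or a near exon, at chrX:166385391-166385468. Capitals mark the coding bases of that exon without the stop codon, 147 for the far end and 78 for the near end.
Gpm6b far coding end: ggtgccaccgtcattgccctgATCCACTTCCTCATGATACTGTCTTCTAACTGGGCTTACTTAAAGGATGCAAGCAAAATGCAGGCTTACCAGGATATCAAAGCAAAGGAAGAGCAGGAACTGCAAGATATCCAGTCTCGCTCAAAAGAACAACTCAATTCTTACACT
Gpm6b near coding end: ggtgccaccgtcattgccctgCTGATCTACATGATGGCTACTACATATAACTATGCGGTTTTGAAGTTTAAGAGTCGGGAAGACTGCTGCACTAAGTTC

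The pup 1 library held 41082811 expected counts, 1.37 times the 29881397 of the pup 3 library. Spike-ins took 4.46% of TPM, a level per length with a fixed total per library, in pup 1 and 7.30% in pup 3. Markers of neural cell types were present: 7 of 8 neuronal markers and 10 of 11 markers of radial glia and astrocytes reached 1 TPM in both libraries, with Rbfox3, a marker of mature neurons, at 0 in pup 3. The 8 neuronal markers summed to 9075 TPM in pup 1 and 4223 TPM in pup 3, with Tubb3, a neuronal tubulin, at 6275 and 1872 TPM. The glial markers summed to 3544 TPM in pup 1 and 4113 TPM in pup 3, and the erythroid markers to 1750 TPM in pup 1, against 3276 TPM in pup 3. For choroid plexus the marker sum was 1853 TPM in pup 1 and 2003 TPM in pup 3, for endothelium and mural cells 87.5 and 152 TPM, and for meninges 282 and 149 TPM. Of 8 markers each, 1 of the oligodendrocyte lineage and 1 of microglia reached 1 TPM in both pups, with Mog and P2ry12 at 0 in both. The microglial markers summed to 269 TPM in pup 1, against 114 TPM in pup 3, and 4 of them reached 1 TPM in pup 1 alone and 1 in pup 3 alone. Over all 21461 nuclear protein-coding genes, 3743 reached 1 TPM in pup 1 alone and 905 in pup 3 alone. The oligodendrocyte lineage markers summed to 72.8 TPM in pup 1, against 61.1 TPM in pup 3. The part that such differences in mixture play in the members' values was not tested.

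All 7 members reached 1 TPM in both pups, as did 24.7% of the 21461 nuclear protein-coding genes. Of the 21461, 11508 reached 1 TPM in neither pup, whereas each member had a mean of 112 TPM or more. The share among genes of the members' level is not given here, so the count does not set the members apart. Together they made up 4152 TPM in pup 1 and 3056 TPM in pup 3, or 3604 ± 775 TPM (SD, n = 2). This was 0.415% of all TPM in pup 1 and 0.306% in pup 3. Gap43 alone held 54.0% of that sum in pup 1 and 49.6% in pup 3. By mean TPM the order was Gap43, Gpm6a, Gpm6b, Dbn1, Marcks, Marcksl1 and Basp1. Gap43 stood above Gpm6a and Gpm6a above Gpm6b in both pups, without overlap of their ranges. From Gpm6b down, the ranges of each pair of neighbours overlapped, although Marcksl1 lay above Basp1 within each pup. Marcks and Gpm6b lay above Basp1 without overlap.

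**Figure D1:**
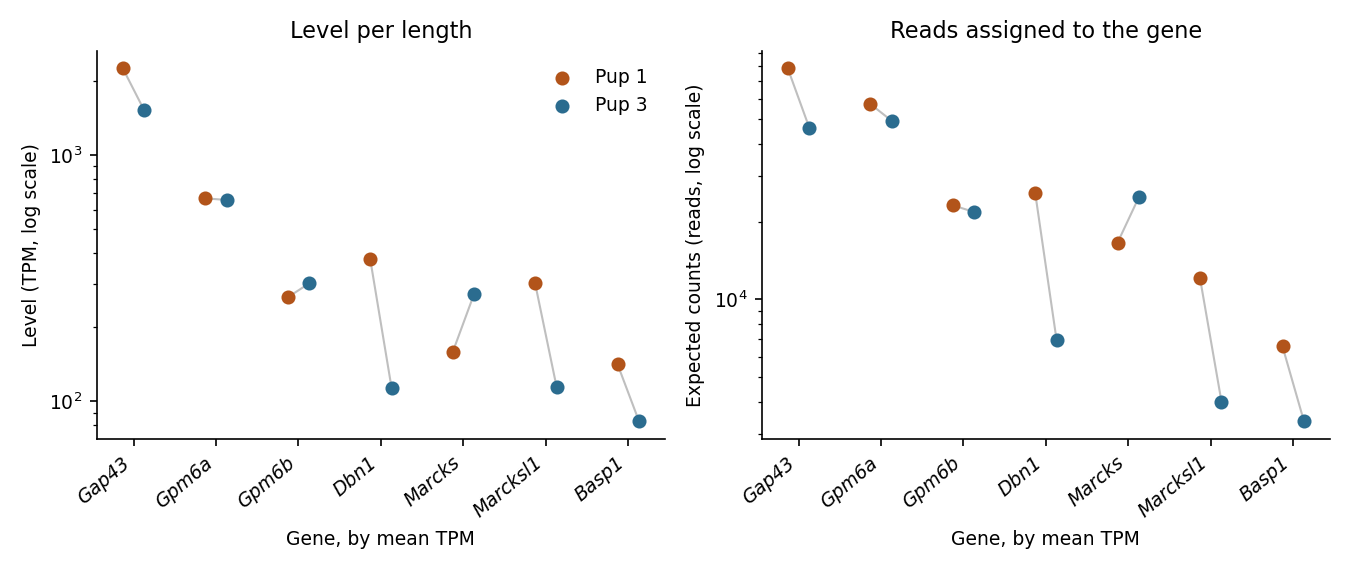
Level of each gene in TPM (left) and expected counts assigned to it (right), both on log axes, with 1 point per pup and a line joining the 2 pups of a gene. Gap43 is highest in both pups, the points of Gpm6a nearly coincide at 666 and 656 TPM, and Dbn1 and Marcksl1 lie well above in pup 1.

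Among the fatty-acid-anchored proteins, Gap43 was the most abundant message. Gap43 (ENSMUSG00000047261), on the minus strand at chr16:42248442-42340651, had 2242 TPM in pup 1 and 1514 TPM in pup 3 (1878 ± 515, SD, n = 2), from 78596 and 46344 expected counts. It ranked 23 in pup 1 and 50 in pup 3 among nuclear protein-coding genes, so it was among the most abundant messages of both libraries. The log2 ratio of pup 1 over pup 3, taken on log2(TPM + 1), was 0.57.

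Basp1 (ENSMUSG00000045763), on the minus strand at chr15:25363277-25413764, encodes a myristoylated protein also called CAP-23. It had 142 TPM in pup 1 and 83.2 TPM in pup 3 (112 ± 41.2, SD, n = 2), from 6565 and 3371 expected counts, with a log2 ratio of 0.76. It was the lowest of the 7 in both pups. Gap43 stood above Basp1 by 15.8 times in pup 1 and 18.2 times in pup 3 in TPM, so the distance between this pair was similar in both libraries.

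Marcks (ENSMUSG00000069662), on the minus strand at chr10:37133375-37138920, encodes the myristoylated alanine-rich substrate of protein kinase C, and Marcksl1 (ENSMUSG00000047945), on the plus strand at chr4:129513581-129515985, its smaller relative. Marcks had 158 TPM in pup 1 and 273 TPM in pup 3 (216 ± 80.9, SD, n = 2), from 16595 and 24958 expected counts, and was the 1 member with fewer reads in pup 1, the deeper library. Its log2 ratio was -0.78. Marcksl1 had 301 TPM in pup 1 and 115 TPM in pup 3 (208 ± 132, SD, n = 2), from 12048 and 4011 expected counts, and its log2 ratio was 1.38. The pair thus changed places in TPM, a level per length. In expected counts, Marcks lay above Marcksl1 in both pups, with transcripts of 4048 and 1605 bases. Marcks over Marcksl1 was 0.525 in TPM in pup 1 and 2.37 in pup 3. This ratio within a library does not depend on how the libraries are scaled to each other. Their coding sequences were identical at 68.9% of 598 aligned bases, with 331 further bases in gaps that this share leaves out. The longest run shared by their transcripts was 17 bases. The 1 pseudogene named after a member, Marcksl1-ps4, had 0 reads in both pups.

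The tetraspan proteins varied least. Gpm6a (ENSMUSG00000031517), on the plus strand at chr8:54954843-55060871, had 666 TPM in pup 1 and 656 TPM in pup 3 (661 ± 7.07, SD, n = 2), from 57228 and 49223 expected counts. Its log2 ratio was 0.02, and its sign turned under another scaling, to -0.24 with the deposited FPKM. Gpm6b (ENSMUSG00000031342), at chrX:166238911-166388988, had 264 TPM in pup 1 and 301 TPM in pup 3 (283 ± 26.0, SD, n = 2), from 23157 and 21806 expected counts, with a log2 ratio of -0.19. Gpm6a over Gpm6b was 2.52 in pup 1 and 2.18 in pup 3. The coding sequences of the pair were identical at 67.7% of 779 aligned bases, with 83 further bases in gaps. The coefficient of variation over the pups was 1.07% for Gpm6a and 9.21% for Gpm6b, and the other 5 members ranged from 27.4% to 76.3%.

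Dbn1 varied most. Dbn1 (ENSMUSG00000034675), on the minus strand at chr13:55473429-55488111, had 378 TPM in pup 1 and 113 TPM in pup 3 (246 ± 187, SD, n = 2), from 25923 and 6953 expected counts. The deposited credibility bounds, which cover error within a library only, were 367 to 377 TPM in pup 1 and 109 to 116 TPM in pup 3. Its log2 ratio was 1.73, the largest of the 7. It held place 356 among nuclear protein-coding genes in pup 1 and place 1434 in pup 3.

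Of the 7 members, 2 were 2-fold or more apart between pups, Dbn1 and Marcksl1, both higher in pup 1. A fold of this size is a description and not a test, since each pup gave 1 library. Of the 2797 nuclear protein-coding genes at a mean of 50 TPM or more, 43.1% were as far apart, 19.7% higher in pup 1 and 23.4% higher in pup 3. Among the 1260 genes at 100 to 500 TPM, where Dbn1, Marcksl1, Marcks, Gpm6b and Basp1 lie, the share was 38.9%. At 50 to 100 TPM, where no member lies, it was 51.6% of 1278 genes. Among the 259 genes at 500 TPM or more, where Gap43 and Gpm6a lie, it was 21.2%. In TPM, Dbn1 was 3.34-fold and Marcksl1 2.62-fold apart. The median log2 ratio was 0.57 over the 7 members and -0.12 over the 2797 genes. Over the 11402 nuclear protein-coding genes above 0 TPM in either pup it was 0.49. Of these 11402, 7311 were higher in pup 1 and 4069 in pup 3. In TPM, 5 members were higher in pup 1 and 2, Marcks and Gpm6b, in pup 3, and under every scaling in which Gpm6a turned, 4 were higher in pup 1. Neuronal markers also summed higher in pup 1, as given above, with 6 of 8 higher in pup 1, 2 in pup 3 and a median log2 ratio of 0.58. Of them, Snap25, a synaptic vesicle fusion protein, had 433 TPM in pup 1 and 121 TPM in pup 3. Dcx, a microtubule protein of young neurons and 1 of the 2 higher in pup 3, had 87.0 TPM in pup 1 and 115 TPM in pup 3. Their part in the members' values was not tested.

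**Figure D2:**
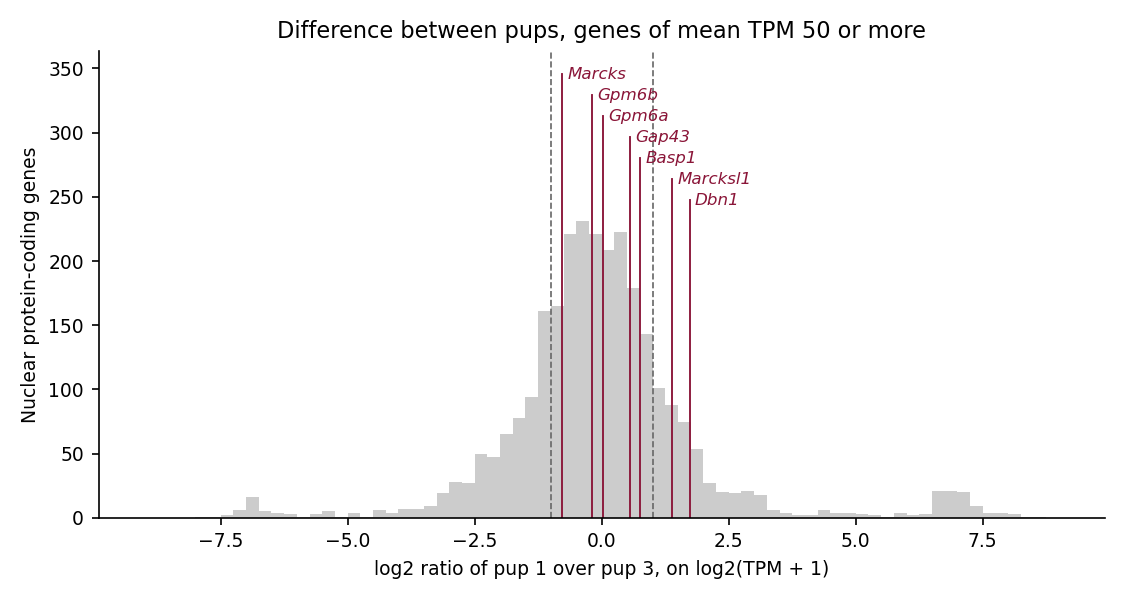
Histogram of the log2 ratio of pup 1 over pup 3, on log2(TPM + 1), for 2797 nuclear protein-coding genes of mean TPM 50 or more, with a labelled line for each of the 7 genes and dashed lines at 2-fold. Dbn1 (1.73) and Marcksl1 (1.38) lie beyond the dashed line on the pup 1 side, where 19.7% of the genes also lie.

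The gene whose pair of levels lay nearest to each member, by Euclidean distance on log2(TPM + 1) over the 2 pups, was found among all nuclear protein-coding genes. For Gap43 it was Ptma, the message of the small acidic protein prothymosin alpha, with 1932 TPM in pup 1 and 1359 TPM in pup 3, at a distance of 0.27. For the other 6 the distance lay between 0.04 and 0.10. The nearest gene was Npdc1 for Dbn1 (390 TPM in pup 1, 120 TPM in pup 3), Vcp for Marcksl1 (309 TPM in pup 1, 117 TPM in pup 3) and Atp6v0d1 for Marcks (162 TPM in pup 1, 281 TPM in pup 3). It was Morf4l1 for Gpm6a, Pja1 for Gpm6b and Caprin1 for Basp1. Within a distance of 0.25 there were 0 genes for Gap43, 5 for Dbn1 and between 14 and 38 for the other 5, so likeness over 2 points singled out few genes only at the top of the scale and for Dbn1.

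The transcript tables listed 27 transcripts of the 7 genes, 20 of them with a coding region. Of these 27, 15 reached 1 TPM in pup 1, 12 in pup 3 and 9 in both. The share over all listed transcripts is not given here, so these counts describe the 7 genes only. Marcks, Marcksl1, Basp1 and Gpm6a had 1 transcript each. Gap43 had 2, and Gap43-201 held 99.98% of its TPM in pup 1 and 99.93% in pup 3. Only Dbn1, with 9 transcripts, and Gpm6b, with 12, were split between coding forms. How often the forms of other genes differ as much between the pups was not tested. Bounds given for a transcript are the deposited credibility bounds, which surround the posterior mean of the estimate, so the TPM itself can lie outside them. They cover the assignment and sampling of reads within a library, not the spread between pups.

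Dbn1 was read mainly as forms without the 138-base exon in both pups. Transcripts that skip it summed to 334 TPM in pup 1 and 112 TPM in pup 3, which was 88.4% and 98.6% of the gene. The form with the exon, Dbn1-201 with 2118 coding bases, had 41.4 TPM in pup 1 (bounds 36.0 to 45.5) and 0.17 TPM in pup 3 (bounds 0.0084 to 0.665). Its share was 10.9% in pup 1, from 3271 expected counts, and 0.150% in pup 3, from 11.5 expected counts. The adult-type exon was thus a minor part of Dbn1 in pup 1 and rested on few reads in pup 3. The remaining 6 transcripts held 0.658% of the gene in pup 1 and 1.25% in pup 3, and could not be assigned to either form.

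The forms that skip the exon were themselves split by the acceptor with 3 added bases. Dbn1-203, with 1980 coding bases and the shorter acceptor, had 160 TPM in pup 1 and 79.2 TPM in pup 3, which was 42.2% and 70.0% of the gene. Dbn1-202, with 1983 coding bases and the longer acceptor, had 175 TPM in pup 1 and 32.4 TPM in pup 3, a share of 46.2% and 28.6%. In TPM, Dbn1-202 led in pup 1 and Dbn1-203 in pup 3. In expected counts, Dbn1-203 led in both, with 12045 in pup 1 and 5216 in pup 3, against 10564 and 1711 for Dbn1-202. These transcripts also differ at both outer ends in the annotation, so reads other than those over the 3 bases enter this split.

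Gpm6b had nearly the same level in both pups, yet its forms differed. Messages from the upstream start summed to 220 TPM in pup 1 and 144 TPM in pup 3, a share of 83.1% and 47.8%. Messages from the downstream start summed to 44.6 TPM in pup 1 and 157 TPM in pup 3, a share of 16.9% and 52.2%. The upstream start was thus the main one in pup 1, and the starts were near equal in pup 3. The 120-base exon was at 2.46 TPM in pup 1, all from Gpm6b-210, a transcript annotated as subject to nonsense-mediated decay, and at 58.5 TPM in pup 3, of which the coding transcript Gpm6b-207 had 58.4 TPM (bounds 20.9 to 58.1). Gpm6b-207 had 0 TPM in pup 1, with an upper bound of 0.812 TPM. The exon made 0.930% of the gene in pup 1 and 19.4% in pup 3.

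At the other end of the Gpm6b message, the far coding end held 65.0% of the gene in pup 1 and 85.5% in pup 3, and the near coding end 34.0% and 14.4%. The far end was the main one in both pups. Gpm6b-201, which joins the upstream start to the far end, was the leading transcript, with 172 TPM in pup 1 and 144 TPM in pup 3. Gpm6b-203, with the downstream start and the near end, had 40.5 TPM in pup 1 and 43.5 TPM in pup 3. Bounds of full-length combinations were wide: those of Gpm6b-203 ran between 9.33 and 42.7 TPM in pup 1 and between 5.06 and 41.0 TPM in pup 3. Gpm6b-206, with the downstream start and the far end, had 0 TPM in pup 1, where its upper bound was 21.8 TPM, and 55.1 TPM in pup 3. Gpm6b-209, with the upstream start, had 45.7 TPM in pup 1 and 0 TPM in pup 3. When the shares were taken from the posterior mean, the downstream start held 16.8% in pup 1 and 52.2% in pup 3, and the 120-base exon 1.09% and 19.7%.

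**Figure D3:**
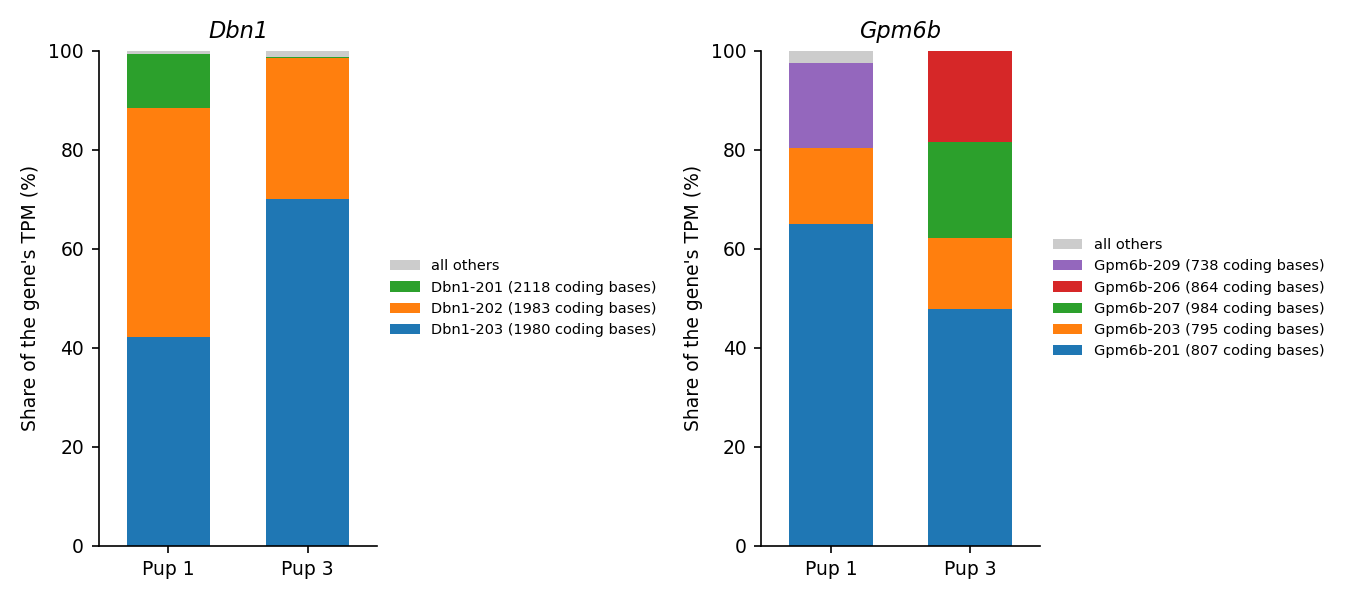
Share of the gene's TPM, in percent, held by each transcript of Dbn1 (left) and Gpm6b (right) in pup 1 and pup 3, with transcripts under 1% in both pups pooled as all others. The Dbn1 transcript with 2118 coding bases holds 10.9% in pup 1 and 0.150% in pup 3, and Gpm6b-206 and Gpm6b-207 appear in pup 3 and Gpm6b-209 in pup 1.

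The 7 messages differ in structure. The leading transcript has 2 exons in Basp1, Marcks and Marcksl1, 3 in Gap43, 7 in Gpm6a and Gpm6b and 14 in Dbn1. The coding regions of Marcks and Basp1 were 75.6% and 74.5% G and C, those of Gpm6a and Gpm6b 47.7% and 49.7%. In all 7, the coding region held more G and C than the whole leading transcript, by the widest margin in Marcks (75.6% over 45.1%) and the narrowest in Dbn1 (59.1% over 58.2%). Over the whole leading transcript, G and C made up 58.2% in Dbn1 and in Marcksl1, above 91.9% and 92.0% of the 2524 genes of mean TPM 50 or more with a sequence, and 39.0% in Gpm6a, above 1.86% of them. Basp1 stood above 84.1% of these genes in G and C content, Gap43 above 45.5%, Marcks above 21.3% and Gpm6b above 7.53%. Genes annotated over the members' spans that were listed in the tables, Mir6540 within Gap43 and Mir6944 within Dbn1, had 0 reads, and none of the overlapping genes lies on the opposite strand.

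The proteins that act with these members were described from lists of named genes. Of the 11402 nuclear protein-coding genes above 0 TPM in either pup, 7311 were higher in pup 1 and 4069 in pup 3. Their median log2 ratio was 0.49, and 62.9% were 2-fold or more apart, 42.9% higher in pup 1 and 20.0% higher in pup 3. The medians and counts of the lists are read beside that background. At a mean of 50 TPM or more, the median over nuclear protein-coding genes was -0.12, and every list holds genes above and below that level. Calmodulin, the kinases C, calcineurin and related proteins were found at 1 TPM or more in both pups for 12 of 13 genes, with a median log2 ratio of 0.66. Of the 13, 5 were 2-fold or more higher in pup 1 and 2 in pup 3. Calm2, which encodes calmodulin, had 2298 TPM in pup 1 and 3533 TPM in pup 3, and Calm3, which encodes the same protein, had 404 TPM in pup 1 and 335 TPM in pup 3.

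Enzymes of lipid anchoring were found in each pup for 10 of 16 genes, only in pup 1 for 5 and only in pup 3 for 1, with a median log2 ratio of 0.63. Of the 16, 6 were 2-fold or more higher in pup 1 and 1 in pup 3. Nmt2, which attaches myristate, had 153 TPM in pup 1 and 124 TPM in pup 3. Metap2, which removes the first methionine, had 169 TPM in pup 1 and 103 TPM in pup 3. Lypla1, a thioesterase that removes palmitate, had 95.2 TPM in pup 1 and 103 TPM in pup 3. These 3, the highest of the list, stayed within 2-fold.

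Of the phosphoinositide turnover genes, 10 of 17 reached 1 TPM in each pup, 4 did so in pup 1 alone and 3 in neither. The median log2 ratio of the 15 with any signal was 0.82, with 6 genes 2-fold or more higher in pup 1 and 3 in pup 3. Inpp5f, an inositol phosphatase, led with 1004 TPM in pup 1 and 282 TPM in pup 3. Pip5k1c, a kinase that makes phosphatidylinositol bisphosphate, had 46.4 TPM in pup 1 and 0.90 TPM in pup 3, and Ocrl, a phosphatase that removes it, had 25.4 and 14.1 TPM. Pip4k2c and Pip5k1b had 0 TPM in both pups.

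Membrane skeleton genes and partners of drebrin were found in both pups for 10 of 12, with a median log2 ratio of 0.70, 4 genes 2-fold or more higher in pup 1 and 2 in pup 3. Mapre1, the microtubule end-binding protein EB1, had 365 TPM in pup 1 and 274 TPM in pup 3. Cttn, the actin-branch protein cortactin, had 142 TPM in pup 1 and 149 TPM in pup 3, and Sptbn1, a spectrin of the membrane skeleton, had 138 and 74.0 TPM. In expected counts the gap of Sptbn1 was narrower, with 15548 in pup 1, the deeper library, and 14031 in pup 3. In CPM with TMM factors, which is not divided by length, the median log2 ratio of this list was 0.32. The relative of drebrin Dbnl had 95.4 TPM in pup 1 and was listed at 0 in pup 3, and Mapre3, an end-binding protein that binds drebrin, had 1.69 TPM in pup 1 and 68.9 TPM in pup 3. Those last 2 genes were chosen after their values were seen.

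RNA-binding proteins known to act on the Gap43 message, the Elavl family among them, were found in both pups for 4 of 6 genes and in pup 1 alone for 2. The highest of them, Elavl4, which stabilises that message, had 113 TPM in pup 1 and 191 TPM in pup 3. Elavl3 had 66.1 TPM in pup 1 and 72.6 TPM in pup 3, and Elavl2 106 and 18.0 TPM. The median log2 ratio was 1.86, with 4 genes 2-fold or more higher in pup 1 and 0 in pup 3, although Elavl4 and Elavl3 were higher in pup 3. That median lies between the ratios of the 2 lowest genes of the list. These had 7.43 and 2.73 TPM in pup 1, and 1.38 and 0 TPM in pup 3. The list summed to 316 TPM in pup 1 and 283 TPM in pup 3. With 0 reads set to a floor of 3 reads in that library, and no pseudocount, the medians of the 5 lists in the order given were 0.68, 0.64, 0.99, 0.70 and 2.50.

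**Figure D4:**
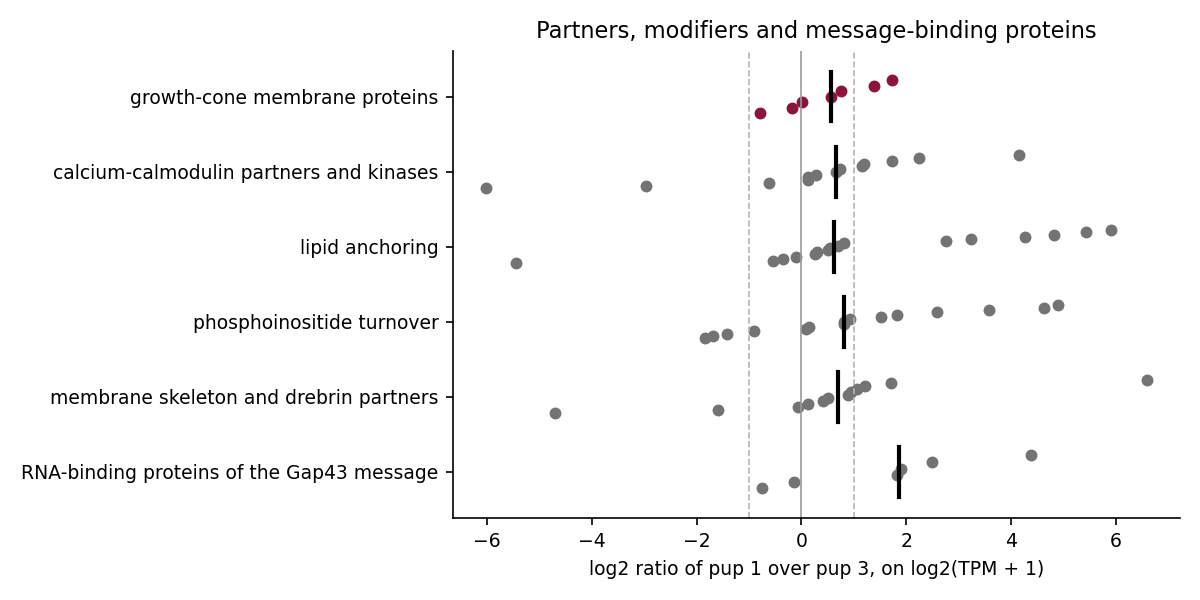
Log2 ratio of pup 1 over pup 3, on log2(TPM + 1), for the 7 growth-cone genes (top) and for each gene with signal in 5 lists of partners and modifiers, with a black bar at the median and dashed lines at 2-fold. The growth-cone genes spread between -0.78 and 1.73, and every list of partners has members beyond 2-fold, with medians between 0.63 and 1.86.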

How the data were processed

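The authors deposited, per library, a gene table and a transcript table with expected counts (estimated reads, multi-mapped reads shared out), TPM and FPKM, per the file headers, which carry RSEM's column names. Posterior mean TPM stands beside them with credibility bounds, a deposited score in TPM units whose interval level no source used here states. The deposited isoform percent was not used in the text, where shares were computed from transcript TPM. The text deposited with each library names build mm10 and annotation M4; no source used here names the aligner, versions or strand setting. Symbols, positions and sequences came from GENCODE M21 by identifier without version (98.0% of genes matched), which gives Gpm6a-201 and Basp1-201 other lengths than the tables.

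The libraries are separate pups per the labels, although both carry the same donor identifier. With 1 library per pup no test was possible, so differences are log2 ratios with a pseudocount of 1, called at 2-fold. Expected counts of the members were whole to the last deposited decimal, so none held a fraction of a read, which does not show that every read matched 1 gene. The named genes are the 7 members, the 3 highest of each list, transcripts of 10% mean share or more, overlapping genes and pseudogenes, and each member's nearest gene, of which 1 gene is not reported here; the other transcripts of Dbn1 and Gpm6b that the text names, Tubb3, Snap25, Dcx and the markers at 0 were added for their values. The members and lists were chosen with earlier results of these data known. Expected counts, rounded to whole numbers, were scaled with edgeR 4.0.16 and DESeq2 1.42.0 only as alternatives, in R 4.3.3; other steps used Python 3.11.15, pandas 2.3.3, numpy 2.4.6, Biopython 1.88 and matplotlib 3.10.9. The ratio step was run on simulated counts with known changes and Poisson noise only, without the added spread of amplified libraries. For the share step it was checked only that the shares of a gene add up to the whole, which holds by construction.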

Additional observations from a re-analysis of the deposited data

How the results depend on the processing

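Alternatives were other scalings (FPKM, CPM with TMM factors, DESeq2 size factors, posterior mean TPM, TPM without spike-ins and mitochondrial genes), pseudocounts, filters and each pup alone. No paired analysis was possible because both libraries belong to 1 group. The members' sum became 2526 with FPKM, 5489 with CPM and 5469 with DESeq2 factors, which are other units. The log2 ratio of Gpm6a turned to -0.24 with FPKM, -0.029 with CPM, -0.042 with DESeq2 factors and -0.040 without spike-ins and mitochondrial genes, and Marcks passed 2-fold with FPKM at -1.04, which made 3 members apart in place of 2. FPKM moved the median log2 ratio of the 2797 genes to -0.38, against -0.12 in TPM. The share of genes apart by 2-fold was 71.4% at a mean of 1 TPM or more, 63.8% at 10 or more, 35.9% at 100 or more, 33.4% without a filter, 45.4% with FPKM and 39.8% with a pseudocount of 10. Median levels of the lists, in the order of the text, were 73.4, 49.4, 18.6, 129 and 64.1 in CPM; with FPKM the phosphoinositide list was at 4.13 and the membrane skeleton list at 56.4. These list levels are in other units than TPM, and CPM is not divided by length. The median log2 ratios of the lists in CPM, in the same order, were 0.65, 0.93, 0.90, 0.32 and 2.18. The share without a filter is over all 21461 nuclear protein-coding genes, of which 11402 were above 0 TPM in either pup. The move with FPKM was not particular to Gpm6a and Marcks, since the log2 ratio of each of the 7 members was lower than in TPM. With FPKM it was 0.30 for Gap43, 0.50 for Basp1, 1.12 for Marcksl1, -0.45 for Gpm6b and 1.47 for Dbn1. The median of the members moved from 0.57 to 0.30. What moved Gpm6a under the other scalings was not tested. With both pups in use, 95 other values of the main results stayed within the spread of the pups, kept direction and side of 2-fold, or, for counts, stayed within 1.5 times. These limits are wide, so the count says little of stability. The mean share of Dbn1 with the alternative exon was 5.55% with an SD of 7.63. The median log2 ratio of the membrane skeleton list counted as unmoved at 0.70 in TPM and 0.32 in CPM. Each pup alone says nothing of stability, since with 2 pups either value lies within 1 SD of the mean by construction: the share of Dbn1 with the alternative exon was 10.9% in pup 1 alone and 0.150% in pup 3 alone. Reads are copies amplified from 13 pg of RNA, so the 3371 reads or more behind each member do not give the number of molecules sampled.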
